A study of Cucumis sativus with 6 samples.

Results

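Peroxidase genes of the cucumber fruit were selected from the deposited expression table by product name. Every gene whose name contained "peroxidase" was taken, except names that also contained glutathione, ascorbate or thioredoxin, which gave 70 of 21317 genes. Of the 70, 65 were haem peroxidases by their domain annotation and carried plain, putative or numbered peroxidase names, as class III peroxidases do. The other 5 do not carry the name of that class: 1 was a catalase-peroxidase, a class I name, and 4 were acid phosphatase/vanadium-dependent haloperoxidase-related proteins. They were kept in the counts and are pointed out where they appear. The samples were peel and flesh dissected from fruits of the inbred line YB, taken after self-pollination at day 3, day 6 and day 9 for a study of fruit astringency. All fruits were of this 1 line and untreated, each library was a mix of 3 fruits, and each tissue and day had 1 library.

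Class III peroxidases are secreted plant enzymes with a haem group. They use hydrogen peroxide to oxidise phenolic compounds, and this links monolignols into lignin, phenolics into suberin, and extensin proteins to each other in the cell wall. They can also generate reactive oxygen, and plant genomes hold them in large families that often include neighbouring copies. In tomato fruit, wall-bound peroxidase activity of the skin has been linked to the end of growth.

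The libraries held between 14899922 (peel, day 9) and 23740219 (flesh, day 6) recovered reads. The day 9 peel library stood apart: its score on the first principal component of all tested genes (51.8% of the variance) was 124, while the other 5 scored between -79.6 and 36.6. Marker names were checked against the labels. For epidermis and cuticle, a peel list took the 81 genes with 3-ketoacyl-CoA synthase, eceriferum, fatty acid elongase or GDSL names. These names do not by themselves place a gene in the peel. The list summed to 963, 2039 and 4565 FPKM (mapped fragments scaled by gene length and library size) in peel at days 3, 6 and 9. In flesh it summed to 606, 515 and 454 FPKM, and 7 of its genes were at 0 in all libraries. Without its 2 most abundant genes this list summed to 783, 1070 and 1881 FPKM in peel, against 491, 465 and 403 FPKM in flesh. At day 9, 23 of its 52 tested genes lay 4-fold or more above flesh in peel and 3 as far below. These shares over all genes were 7.03% and 3.94%. A GDSL esterase/lipase of this list, Csa7G448130, went the other way. It had 1.35, 1.16 and 0.365 FPKM in peel, against 31.0, 24.9 and 21.5 FPKM in flesh. The 25 seed and ovule names summed to 118, 124 and 111 FPKM in peel, against 358, 410 and 454 FPKM in flesh, with 1 at 0 in all libraries. Without its 2 most abundant genes the seed list summed to 103, 82.1 and 96.5 FPKM in peel, against 199, 167 and 160 FPKM in flesh. The 31 vascular and phloem names summed to 12603, 8832 and 14651 FPKM in peel, against 1507, 5027 and 18131 FPKM in flesh, with 0 of them at 0 in all libraries. Without its 2 most abundant genes, Csa7G067350 and Csa7G067370, chosen after their values were seen, this list summed to 3747, 3819 and 7496 FPKM in peel, against 800, 3072 and 9969 FPKM in flesh. Its median peel minus flesh difference on days 3, 6 and 9 was 1.23, -0.33 and -0.62. Their part in the peroxidase results was not tested. In such mixed tissue, fewer cells of a type and less RNA per cell cannot be told apart.

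Summed over the 70 genes, peroxidase transcripts stood at 2577, 1627 and 4199 FPKM in peel at days 3, 6 and 9, against 1825, 1974 and 3112 FPKM in flesh. These sums were 0.395%, 0.260% and 0.568% of all FPKM in peel, against 0.319%, 0.313% and 0.441% in flesh. A single plainly named Peroxidase, Csa1G062960, made up most of the sum in 5 of the 6 libraries. It had 1359, 896 and 818 FPKM in peel, against 1062, 1125 and 2247 FPKM in flesh. That was 52.7%, 55.1% and 19.5% of the family's FPKM in peel, against 58.2%, 57% and 72.2% in flesh. Only in the day 9 peel library was another gene ahead of it, Csa4G285780 with 1016 FPKM. Without Csa1G062960 the family summed to 1219, 731 and 3381 FPKM in peel, against 763, 849 and 866 FPKM in flesh. At day 9, 11 members reached 100 FPKM in peel, against 3 in flesh. How many of all genes reached 100 FPKM was not counted, so these numbers describe the libraries and not a trait of the family. The day 9 peel library was also the library that stood apart.

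**Figure D1:**
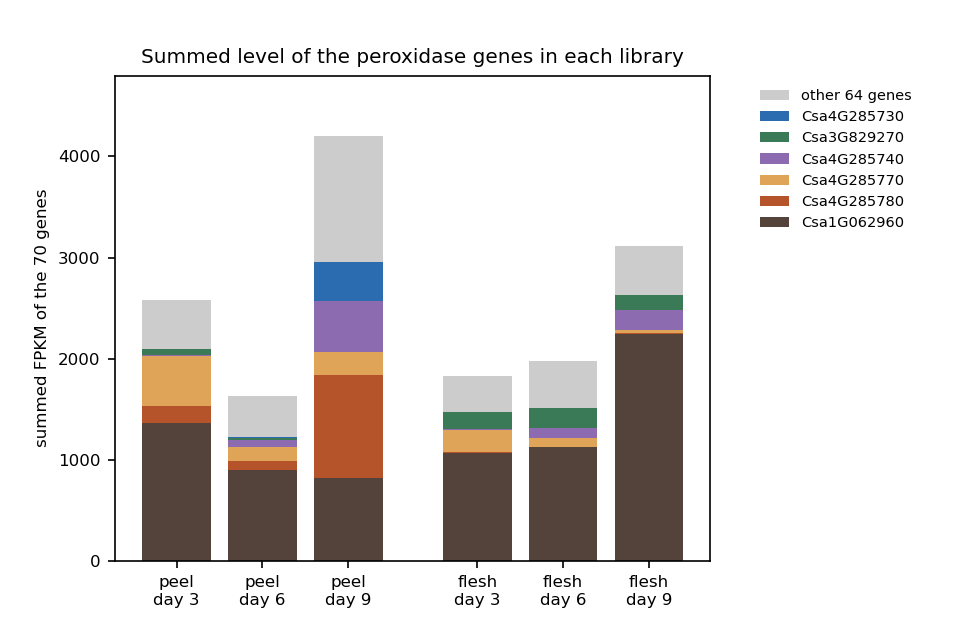
Stacked bars give the summed FPKM (vertical axis) of the 70 peroxidase genes in each of the 6 libraries, peel left and flesh right, with the 6 most abundant genes coloured. Csa1G062960 fills most of every bar except the day 9 peel bar of 4199 FPKM, where 3 genes of the chromosome 4 array take much of the height.

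Of the 70 genes, 37 averaged 1 FPKM or more across the 6 libraries and entered the tests, among them 32 of the 65 haem peroxidases and all 5 of the others. The nearest to this limit were Csa4G285750 at a mean of 1.16 FPKM and Csa7G058560 at 0.856 FPKM, both outside the naming rule and chosen for their place at the limit. Of the 33 genes left out, 2 had no read in any library (Csa4G285810 and Csa7G061720) and 24, these included, stayed under 1 FPKM in every library. Of the 37, 2 passed through a single library, since their mean over the other 5 was under 1 FPKM (Csa4G285750 and Csa5G262770, both highest in peel at day 9). A further 3 had a flesh mean under 1 FPKM and 1 had a peel mean under 1 FPKM. Such genes had to differ to enter, so counts over the 37 describe them and support nothing about the family.

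Peel and flesh were compared over the 3 days with limma on log2(FPKM + 1), with tissue and day in the model. With a single library for every tissue and day, the error of this fit comes from how far the 3 daily differences depart from their average. In limma 0 of the 37 peroxidase genes passed an adjusted p of 0.05, beside 0.261% of all 17265 genes tested. At an unadjusted p under 0.05 limma had 9 members higher in peel and 5 lower, beside 13.0% and 12.3% of all genes. On reads recovered from the scaled counts, edgeR called 1 member (1.45% of all genes) and DESeq2 called 16 (17.3% of all genes), 11 higher (10.1%) and 5 lower (7.22%) in peel. The peel values of 7 members all lay above their flesh values (11.8% of all genes), and those of 5 all lay below (12.8%). The limma differences of the 37 ran from -3.24 to 5.02 log2 units. Their interquartile range was 2.05, against 0.74 over all genes tested. Of the 37, 5 with a flesh mean and 1 with a peel mean under 1 FPKM had to differ to enter. The spread therefore describes these 37 and not the family.

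The distance between peel and flesh at a single day has no replicate check and was counted at 4-fold on log2(FPKM + 1) without a test. At day 3, peel exceeded flesh by 4-fold or more in 3 members (2.66% of all genes) and flesh exceeded peel in 2 (0.822%). At day 6 these numbers were 7 (5.09%) and 2 (2.06%), and at day 9 they were 14 (7.03%) and 4 (3.94%). Over all 70 genes, without the limit on the mean, the day 9 counts were also 14 and 4. The median difference over the 37 was close to 0 on the first days, with -0.02 at day 3 and then -0.03 at day 6. At day 9 it was 0.67, where the median of all genes was -0.06. Over the 32 haem peroxidases alone the day 9 median was 1.37. Over the 3 days the median was 0.25, and it was 0.02 without either day 9 library and 0.41 without either day 3 library. With no limit on the mean it was 0.05, over the 68 members with reads.

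**Figure D2:**
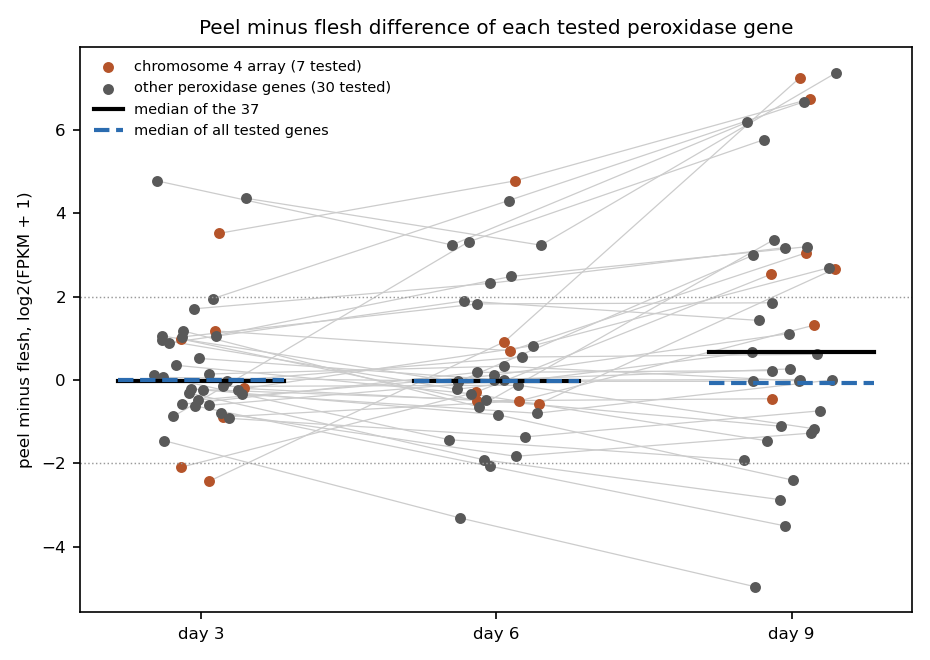
Each point is 1 of the 37 tested peroxidase genes, with its peel minus flesh difference in log2(FPKM + 1) on the vertical axis and the day on the horizontal axis. Black bars mark the median of the 37, dashed blue bars the median of all tested genes, and dotted lines 4-fold. The interquartile range of the 37 is 1.62 at day 3, 1.48 at day 6 and 3.79 at day 9, and their median lies at -0.02, -0.03 and 0.67.

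Among the genes with high peel values, Csa4G285780, a plainly named Peroxidase, had 173, 91.8 and 1016 FPKM in peel at days 3, 6 and 9, against 14.2, 2.38 and 8.46 FPKM in flesh. Every peel library lay above every flesh library, by 12.2-fold, 38.6-fold and 120-fold at the single days. The limma difference was 5.02 ± 0.65 log2 units (SE; adjusted p = 0.0630). Peroxidase 52 (Csa6G213910), whose namesake in Arabidopsis takes part in lignin formation in the stem, had 61.7, 10.5 and 118 FPKM in peel, against 1.28, 0.216 and 0.626 FPKM in flesh. It was the peroxidase that edgeR called for this contrast, with a log2 fold change of 6.24 (edgeR adjusted p = 0.0408), while limma gave 4.74 ± 0.60 (SE; adjusted p = 0.0613). Since its flesh mean was under 1 FPKM, it passed the limit on the mean only through peel, where it is high. Its day 6 peel value was the lowest of the 3 peel values and still 48.8-fold above flesh.

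Csa4G626600 is a short gene model of 284 bases. It had 70.4, 8.44 and 165 FPKM in peel, from 160, 17 and 212 reads, against 2.47 FPKM from 7 reads in flesh at day 3 and no reads at days 6 and 9. A count of 0 allows up to 3 reads, so on the scaled counts peel was at least 7.04-fold higher at day 6 and at least 95.0-fold higher at day 9. Csa4G285780, Csa4G626600 and Csa6G213910 were the members at least 4-fold higher in peel at all 3 days (1.26% of all genes), and 0 members were at least 4-fold lower at all 3 (0.237%). Of these genes, Csa4G626600 and Csa6G213910 averaged under 1 FPKM in flesh and entered the tests through peel.

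Other peel-high genes parted from flesh with time. Csa7G061710 had 20.7, 21.4 and 137 FPKM in peel, against 4.59, 0.129 and 0.353 FPKM in flesh, where the last 2 values rest on 3 and 6 reads. Csa7G049140, a Putative peroxidase, had 8.44, 16.5 and 67.9 FPKM in peel, against 16.3, 0.751 and 0.264 FPKM in flesh. Its peel value was below flesh at day 3 and 258-fold above it at day 9, when flesh had 5 reads. The limma differences over the days were 4.31 ± 0.93 for Csa7G061710 (SE; adjusted p = 0.0995) and 2.74 ± 1.31 for Csa7G049140 (SE; adjusted p = 0.272). For Csa7G049140 it was 1.22 without either day 9 library and 4.54 without either day 3 library.

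A pair of genes named Peroxidase 72, after an Arabidopsis gene involved in lignification, was chosen after its values were seen. The first, Csa4G045010, had 26.6, 12.6 and 18.2 FPKM in peel, against 7.45, 1.72 and 1.12 FPKM in flesh. The second, Csa6G504560, had 2.17, 5.95 and 8.62 FPKM in peel, against 0.513, 0.238 and 0.0470 FPKM in flesh. Csa6G504560 averaged under 1 FPKM in flesh, so it entered the tests only through peel. In both genes the 3 peel values lay above the 3 flesh values, as in 7 members in all (11.8% of all genes). The same held for Csa4G651760, also chosen after its values were seen, at 9.66, 8.69 and 26 FPKM in peel, against 4.2, 1.73 and 6.45 FPKM in flesh. The summed names of the peel list given above were likewise higher in peel on each day, and their part in these differences was not tested.

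Other members had lower values in peel, though limma and edgeR called 0 of them. At an unadjusted p under 0.05 limma had 5 lower, beside 12.3% of all genes. Members whose peel values all lay below their flesh values also numbered 5 (12.8% of all genes). The plainly named Csa3G829270 had the largest negative limma estimate, with 58.8, 19.2 and 3.70 FPKM in peel, against 163, 198 and 145 FPKM in flesh. The groups did not overlap: its peel values were lower at each later day, while its flesh values stayed within 145 to 198 FPKM. The limma difference was -3.24 ± 0.70 (SE; adjusted p = 0.0990). Next to it on chromosome 3, Csa3G829260 was too low to test and had reads mainly in flesh, with 2, 0 and 0 reads in peel, against 22, 68 and 63 in flesh.

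Peroxidase 3 (Csa2G421020) had 11.5, 6.47 and 0.925 FPKM in peel, against 18.2, 30.3 and 20.8 FPKM in flesh, again without overlap (limma -2.06 ± 0.58, SE; adjusted p = 0.137; -1.34 without either day 9 library). The catalase-peroxidase Csa6G383010 had 34.9, 24.7 and 19.0 FPKM in peel, against 61.2, 90.4 and 47.3 FPKM in flesh (limma -1.30 ± 0.25, SE; adjusted p = 0.0887, the lowest among the members with lower peel values). Csa4G026850 had 12.7, 9.36 and 8.22 FPKM in peel, against 15.2, 17.4 and 47.7 FPKM in flesh. Csa6G490230 stayed under 1 FPKM in peel and had 0.519, 5.17 and 7.82 FPKM in flesh, from 19, 178 and 201 reads. It entered the tests only through flesh, where it is high. For both of these genes the distance was small at day 3 and at least 4-fold at day 9. The summed seed and ovule names were lower in peel on each day too, at 111 to 124 FPKM in peel, against 358 to 454 FPKM in flesh, and their part in these differences was not tested.

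**Figure D3:**
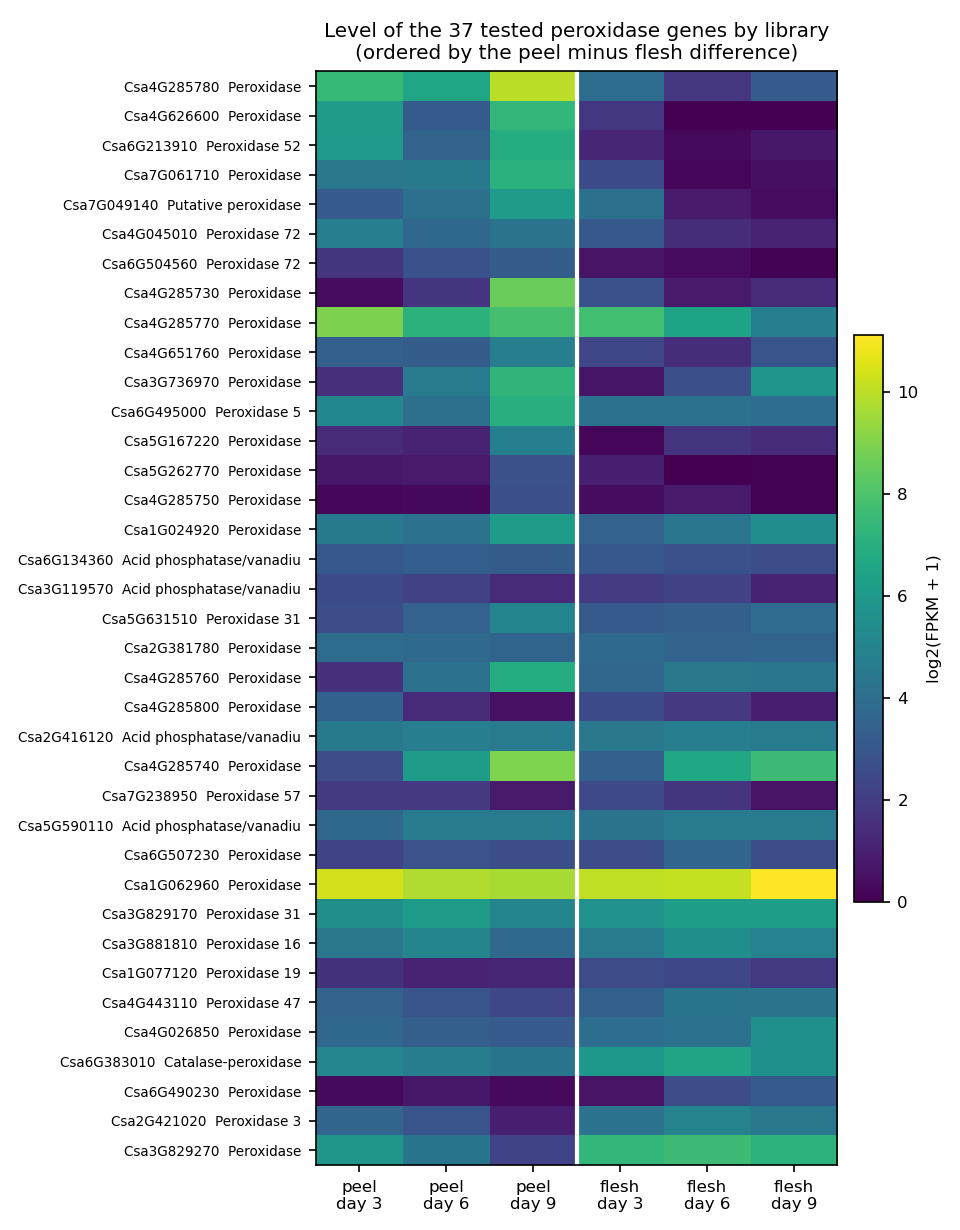
Colour gives log2(FPKM + 1) of the 37 tested peroxidase genes (rows, ordered by the limma peel minus flesh difference) in the 6 libraries (columns, peel left, flesh right). Csa4G285780 stands in the top row at 1016 FPKM in peel at day 9, and Csa3G829270 in the bottom row at 145 to 198 FPKM in flesh, while Csa1G062960 is bright in all 6 columns.

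The time course was compared next, over both tissues in the same model. For day 9 against day 3, limma called 0 of the 37 genes and 0.0% of all genes, and before adjustment (p under 0.05) 5 members were higher and 5 lower (11.3% and 13.6% of all genes). edgeR called 1 member, higher at day 9 (0.104% of all genes), and DESeq2 called 6 higher (7.94%) and 3 lower (8.45%). The gene that edgeR called, the plainly named Peroxidase Csa3G736970, stood out in both tissues. At days 3, 6 and 9 it had 1.85, 23.8 and 156 FPKM in peel, beside 0.536, 5.66 and 57.4 FPKM in flesh. Each later day lay above the one before in both tissues, and day 9 was 84.4-fold above day 3 in peel and 107-fold in flesh, from day 3 values of 41 and 14 reads. Its day 9 minus day 3 difference was 6.56 in edgeR (log2; adjusted p = 0.0438) and 5.52 ± 0.31 in limma (SE; adjusted p = 0.0514).

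Counted within a tissue without a test, 11 members were at least 4-fold higher at day 9 than at day 3 in peel (5.2% of all genes) and 3 at least 4-fold lower (4.63%). In flesh 3 members were at least 4-fold higher (3.4%) and 3 at least 4-fold lower (3.06%). Csa3G736970 and Csa4G285740 were past 4-fold in both tissues (0.985% of all genes), and 9 members were past it in peel and not in flesh (4.22%). Between days 3 and 6 in peel, 3 members were at least 4-fold higher (0.753%) and 3 at least 4-fold lower (0.944%) at the later day. Between days 6 and 9, 11 were at least 4-fold higher at the later day (3.79%). Among these, Csa4G626600, Csa6G213910 and Csa6G495000 had their lowest peel value at day 6 and were not 4-fold above day 3 at day 9. Of the 37 tested genes, 17 had their highest value in the day 9 peel library, as did 25.9% of all genes. These peel counts rest on the library that stood apart.

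Csa5G167220, a plainly named Peroxidase, was among the 5 largest day 9 estimates, with 1.49, 1.07 and 26.7 FPKM in peel, beside 0.0998, 2.23 and 1.67 FPKM in flesh (limma 2.38 ± 0.99, SE; adjusted p = 0.231). Leaving out the day 9 library of peel gave 0.83, and leaving out that of flesh gave 3.93. Peroxidase 57 (Csa7G238950) went the other way, with 2.68, 2.58 and 0.766 FPKM in peel, beside 4.51, 2.15 and 0.508 FPKM in flesh (limma -1.46 ± 0.37, SE; adjusted p = 0.113). In Arabidopsis roots, UPBEAT1 represses a peroxidase of that name. The UPBEAT1 gene of the table that could be tested (Csa2G047780) had 0.0971, 0 and 0.927 FPKM in peel, against 81.6, 30.1 and 56.5 FPKM in flesh (limma adjusted p = 0.0450). Its peel mean was under 1 FPKM, so it entered the test only through flesh. Whether it acts on any of these cucumber genes was not tested.

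Whether the course differed between the tissues was asked with slopes per day. In limma 0 members passed, as did 0.0% of all genes, with 7 positive and 5 negative differences of peel slope minus flesh slope at an unadjusted p under 0.05 (3.83% and 4.88% of all genes). In edgeR 0 members passed, where 0.0% of all genes did, with 9 and 5 at an unadjusted p under 0.05 (3.67% and 4.6%). DESeq2 called 5 members (2.11% of all genes). The slope in peel minus that in flesh was positive for Csa4G285730, Csa4G285760, Csa7G049140 and Csa7G061710 and negative for Csa3G829270. The sign does not say in which tissue the level moved: between days 3 and 9, Csa3G829270 differed by -3.67 log2 units in peel and by -0.17 in flesh, and Csa7G049140 by 2.87 in peel and by -3.77 in flesh. The largest slope difference was that of Csa4G285730, at 1.61 ± 0.38 log2 units per day (SE; limma adjusted p = 0.410). It was followed by Csa7G049140 at 1.11 ± 0.20 and Csa7G061710 at 0.79 ± 0.24, both SE. At the other end were Csa3G829270 at -0.58 ± 0.10, Csa2G421020 at -0.48 ± 0.13 and Csa6G490230 at -0.43 ± 0.15, also SE. With single libraries left out, the difference ranged from 0.69 to 2.54 for Csa4G285730, from 0.63 to 1.58 for Csa7G049140 and from 0.36 to 1.22 for Csa7G061710. It ranged from -0.69 to -0.28 for Csa2G421020 and from -0.68 to -0.18 for Csa6G490230.

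**Figure D4:**
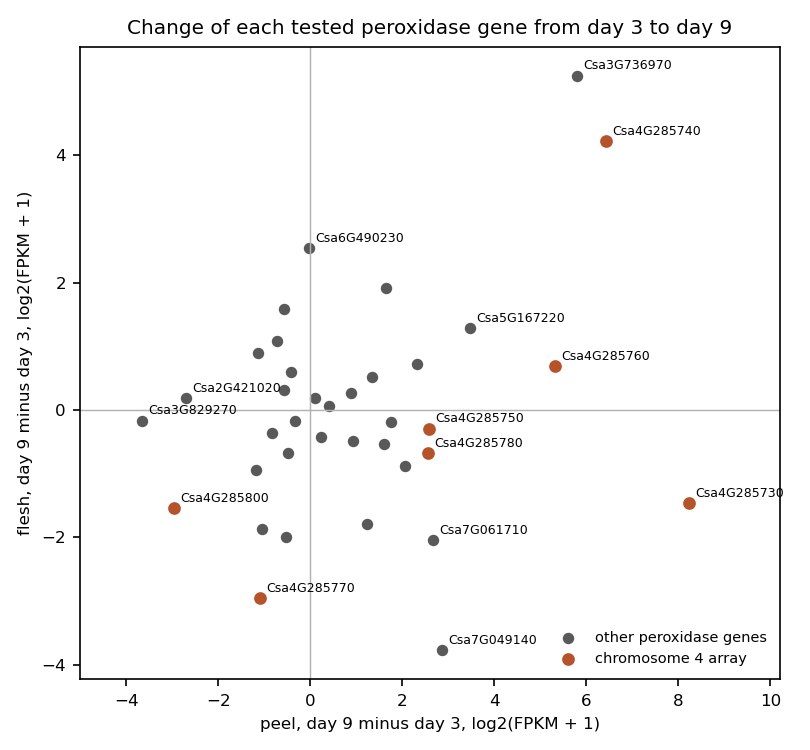
Each point is 1 of the 37 tested peroxidase genes, with the day 9 minus day 3 difference in log2(FPKM + 1) in peel on the horizontal axis and in flesh on the vertical axis. Csa3G736970 and Csa4G285740 lie at the upper right, past 4-fold in both tissues, and Csa4G285730 lies at 8.22 in peel and -1.46 in flesh.

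Position was a feature that the selection did not use. The 70 genes lay on all 7 chromosomes, with 15 each on chromosomes 4 and 6. With members joined when the next one began within 50 kb, 26 genes fell into 7 groups and 44 stood alone. The largest group held 10 peroxidase genes side by side on chromosome 4, between 10986755 and 11039546, with gaps of 1467 to 6919 bases and no other gene of the table among them. The positions are as deposited, and the genome build behind them is not named. How reads of near-identical copies were assigned is not given either, so values of neighbours may share reads.

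The array summed to 686, 324 and 2261 FPKM in peel at days 3, 6 and 9, against 265, 213 and 258 FPKM in flesh. It was 26.6%, 19.9% and 53.8% of the family's FPKM in peel, against 14.5%, 10.8% and 8.28% in flesh. Its 10 genes did not share 1 pattern. In table order, Csa4G285730 had 0.302, 2.29 and 387 FPKM in peel, against 6.00, 0.739 and 1.54 FPKM in flesh. Peel lay below flesh at day 3, from 7 reads, and 251-fold above it at day 9. Its day 9 minus day 3 estimate over both tissues, 3.38 ± 2.35 (SE; limma adjusted p = 0.416), was -0.62 without the day 9 peel library.

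Its neighbour Csa4G285740 had 4.85, 69.4 and 499.8 FPKM in peel, against 9.79, 98.8 and 199.97 FPKM in flesh. Both tissues were higher at each later day, 103-fold in peel and 20.4-fold in flesh between days 3 and 9, and the groups overlapped (limma day 9 minus day 3, 5.32 ± 0.59, SE; adjusted p = 0.0568). Csa4G285750 was low, at 0.113, 0.168 and 5.65 FPKM in peel, against 0.279, 0.726 and 0.0456 FPKM in flesh. Csa4G285760 had 2.02, 16.8 and 119 FPKM in peel, against 11.9, 20.8 and 19.7 FPKM in flesh, so its peel value was below flesh at days 3 and 6 and above it at day 9.

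The next gene, Csa4G285770, ran against this. It was the most abundant of the array at day 3, with 496, 142 and 232 FPKM in peel, against 218, 86.5 and 27.2 FPKM in flesh, and day 9 was the lowest flesh value (limma day 9 minus day 3, -2.02 ± 0.62, SE; adjusted p = 0.152). That estimate was -3.08 when day 9 of peel was left out and -0.97 when day 9 of flesh was. Then came Csa4G285780, described with the peel-high genes, whose level was above that of Csa4G285770 in peel at day 9 and below it in the other 5 libraries. Csa4G285800 had 10.04, 1.54 and 0.406 FPKM in peel, against 4.58, 2.58 and 0.917 FPKM in flesh, lower at each later day in both tissues (limma day 9 minus day 3, -2.26 ± 0.49, SE; adjusted p = 0.0930). The remaining 3 genes of the array were nearly silent, with 7 reads in all for Csa4G285790, 0 for Csa4G285810 and 3 for Csa4G286310.

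**Figure D5:**
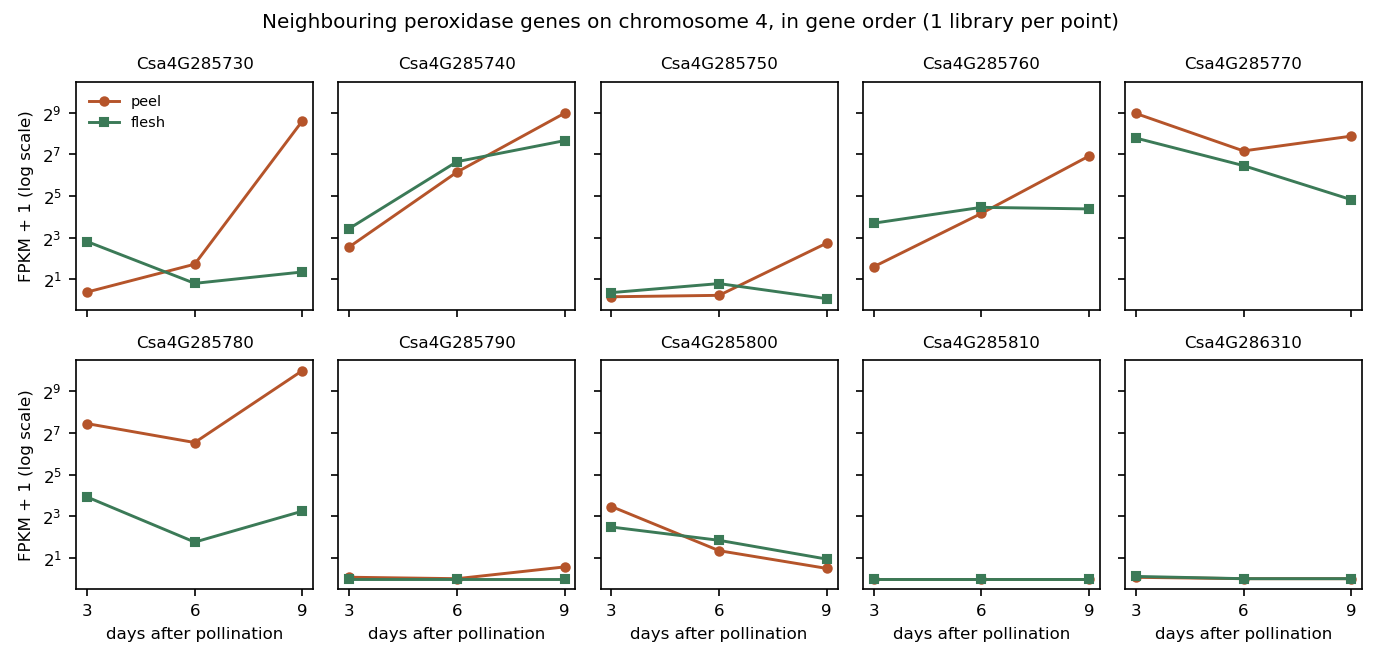
Each panel is 1 of the 10 neighbouring peroxidase genes on chromosome 4, in gene order, with FPKM + 1 on a log scale against days after pollination, peel as circles and flesh as squares, 1 library per point. Csa4G285730, Csa4G285740 and Csa4G285760 climb toward day 9 in peel, Csa4G285800 declines in both tissues, and Csa4G285790, Csa4G285810 and Csa4G286310 stay near 0.

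On chromosome 3, 4 genes between 33161596 and 33229259, with other genes among them, summed to 103, 85.0 and 36.2 FPKM in peel, against 212, 272 and 221 FPKM in flesh. Nearly all of it came from Peroxidase 31 (Csa3G829170) and Csa3G829270. On chromosome 6, Peroxidase 52 (Csa6G213910) was followed by Csa6G216410 and Csa6G216420. Both had 0 reads in 5 libraries and 33 and 18 reads in peel at day 9. A group of 3 genes on chromosome 7 between 16006092 and 16028541 stayed under 1 FPKM in every library.

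At least 10 FPKM was reached by 10 members in every library, and 23 had at least 1 FPKM in every library. Their ratios of highest to lowest library ran from 1.27 to 427, the largest being that of Csa4G285780. The smallest was that of the haloperoxidase-related Csa2G416120, at 21.9, 25.9 and 23.4 FPKM in peel, against 20.9, 26.5 and 23.9 FPKM in flesh. It was chosen after its values were seen, as was Csa2G381780, a haem peroxidase with a ratio of 1.359. Peroxidase 31 (Csa3G829170), the seventh most abundant member, had a ratio of 2.28. The most abundant of all, Csa1G062960, had one of 2.75, with a limma peel minus flesh difference of -0.48 ± 0.42 (SE; adjusted p = 0.507), which was 0.014 without either day 9 library.

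Genes that supply, compete with or use the same chemistry were counted for comparison, in lists matched on product names. Beside them stand the shares of all genes for peel against flesh in limma: 0.261% called, and before adjustment 13.0% higher and 12.3% lower. For the same contrast edgeR called 1.45% of all genes. Of the 33 tested genes for hydrogen peroxide producers, limma called 1 higher in peel, Germin-like protein 6 (Csa1G596420), and 0 lower, with a median difference of 0.00. Of 19 other peroxide-removing genes, which include the catalase-peroxidase, limma and edgeR called 0, and before adjustment 5 were higher and 2 lower (p under 0.05) in limma, with a median difference of 0.19. Their most abundant gene, a Catalase (Csa6G356990), had 796, 737 and 1396 FPKM in peel, against 620, 521 and 846 FPKM in flesh. Next was an Ascorbate peroxidase (Csa1G479610), at 694, 607 and 483 FPKM in peel, against 660, 666 and 608 FPKM in flesh.

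Monolignol synthesis, which makes the units that peroxidases join into lignin, had 0 of 23 tested genes called by limma or edgeR. Before adjustment 4 were higher in peel and 2 lower (p under 0.05) in limma, beside 13.0% and 12.3% of all genes. Past 4-fold, 0 of the 23 lay above flesh in peel and 0 below at day 3 (2.66% and 0.822% of all genes). At day 6, 4 lay above and 1 below (5.09% and 2.06%). At day 9, 6 lay above and 1 below, when 7.03% of all genes lay above and 3.94% below. The most abundant genes of the list were a putative Cinnamoyl-CoA reductase (Csa4G664500), at 76.6, 66.9 and 119 FPKM in peel, against 60.5, 51.8 and 101 FPKM in flesh, and a Cinnamoyl CoA reductase-like protein (Csa6G439410), at 64.8, 37.1 and 102 FPKM in peel, against 71.8, 71.8 and 59.6 FPKM in flesh. Laccases, which oxidise the same units with oxygen in place of hydrogen peroxide, had 0 of 18 called by limma or edgeR. Before adjustment 2 were higher and 4 lower (p under 0.05) in limma, beside the same 13.0% and 12.3% of all genes. Laccase-22 (Csa5G160220) was the most abundant and lay below flesh on each day, with peel levels of 153, 139.6 and 15.0 FPKM, against 188, 205 and 52.2 FPKM in flesh (limma -0.86 ± 0.33, SE; adjusted p = 0.208). Next was a Laccase-like protein (Csa2G348200), at 38.0, 87.2 and 47.9 FPKM in peel, against 21.8, 40.7 and 22.3 FPKM in flesh (limma 0.97 ± 0.16, SE; adjusted p = 0.0775).

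Dirigent and Casparian strip type names had 26 tested genes. Before adjustment 9 were higher and 3 lower in limma (p under 0.05), where 13.0% and 12.3% of all genes were. limma called 1 of them, CASP-like protein 3 (Csa2G048830), at 10.3, 12.4 and 17.4 FPKM in peel and listed at 0 in all 3 flesh libraries (limma 3.82 ± 0.26, SE; adjusted p = 0.0450). It passed the limit on the mean only through peel, where it is high. Of 14 tested suberin and cutin genes limma called 0. Before adjustment 4 were higher and 2 lower (p under 0.05), beside 13.0% and 12.3% of all genes. edgeR called 2, beside 1.45% of all genes. These were fatty acyl-CoA reductases. Csa1G145850 had 9.00, 24.6 and 24.8 FPKM in peel, against under 1 FPKM in flesh. Csa1G145860 had 4.10, 13.3 and 19.7 FPKM in peel, against under 1 FPKM in flesh. Both also entered the tests through peel. Of 34 tested genes with extensin, hydroxyproline-rich or proline-rich cell wall names limma called 0. Before adjustment 7 were higher and 3 lower (p under 0.05), beside 13.0% and 12.3% of all genes. edgeR called 1, beside 1.45% of all genes. In the day 9 against day 3 contrast, limma and edgeR called 0 genes of any of these lists, beside 0.0% of all genes in limma and 0.145% in edgeR. Before adjustment in limma (p under 0.05; 11.3% of all genes higher and 13.6% lower), 1 of the 18 laccases was higher and 6 were lower at day 9, and DESeq2 called 6 of them lower (8.45% of all genes). Of the 26 dirigent and Casparian strip genes 6 were higher and 3 lower, and of the 34 extensins and related proteins 6 were higher and 4 lower. Of the 33 peroxide producers 4 were higher and 3 lower, of the 19 other peroxide-removing genes 0 and 4, of the 23 monolignol genes 2 and 1, and of the 14 suberin and cutin genes 3 and 0. At day 9, past 4-fold, 6 of the 14 suberin and cutin genes lay above flesh in peel and 0 below (7.03% and 3.94% of all genes). These numbers were 6 and 1 for the 26 dirigent and Casparian strip genes and 3 and 4 for the 34 extensins and related proteins. They were 0 and 1 for the 18 laccases, 4 and 1 for the 33 peroxide producers, and 1 and 1 for the 19 other peroxide-removing genes.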

How the data were processed

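RNA-seq libraries of cucumber peel and flesh (6 libraries, 3 fruits each) were used. The authors deposited FPKM per gene and scaled counts. Per the submitters' processing notes, TopHat and Cufflinks 2.1.1 were used. For the genome build, annotation, strand use and reads with several matches, the answer is not given in the sources used here. The deposited count columns are signal values, counts divided by a size factor; dividing by the smallest positive value gave whole reads for 99.7% to 99.8% of values, within 0.05 of a read. FPKM was tested on log2(FPKM + 1), which understates changes of low genes, with limma 3.58.1 (R 4.3.3, trended variance, tissue and day as factors; slopes from tissue by day number), for 17265 genes averaging 1 FPKM or more. The Benjamini-Hochberg adjustment ran over all of them, and a gene was called under 0.05. The residual degrees of freedom were 2, and p-values measure only the departure of single libraries from the model. As alternatives the recovered reads were fitted with edgeR 4.0.16, by its quasi-likelihood test, and with DESeq2 1.42.0. The tools were tested on simulated data.

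The peroxidase genes and the other lists were chosen with earlier results of these data known. Genes named are those called by limma or edgeR, those 4-fold apart on all 3 days, the 10 most abundant, the largest estimates of each contrast, and groups of 3 or more neighbours. From each other list, called genes or otherwise the 2 most abundant are named. Other genes were named after their values were seen, as the members of a small count or of a pattern. Bounds from a count of 0 use 3 reads per library and cover counting error only.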

Additional observations from a re-analysis of the deposited data

Results flagged for a closer look

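Some peroxidase genes moved in opposite directions in the tissues between days 3 and 9, by at least 2-fold in each on log2(FPKM + 1). How many of all genes did so was not counted, so this describes the named genes and not the family. The peel differences rest on the day 9 peel library, which stood apart. Each tissue and day had 1 library, so these differences have no test of their own; the slopes over days are in the report. Csa4G285730 differed by 8.22 in peel and -1.46 in flesh, Csa7G049140 by 2.87 in peel and -3.77 in flesh, Csa7G061710 by 2.67 in peel and -2.05 in flesh, and Csa4G626600 by 1.22 in peel and -1.79 in flesh. The flesh value of Csa4G626600 rests on 7 reads at day 3 and 0 at day 9, and a count of 0 allows up to 3 reads. Its peel values, 70.4, 8.44 and 165 FPKM, were lowest at day 6. It averaged under 1 FPKM in flesh and entered the tests through peel.

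Of the genes too low on average to be tested, 9 reached 1 FPKM in at least 1 library. Their highest values in peel, all at day 9, were 3.21 FPKM for Csa6G013940, 2.69 for Csa6G216410 and 1.51 for Csa6G216420. In flesh, day 3 held the highest values of Csa6G326930 at 2.18 FPKM and Csa7G044780 at 1.88. Day 6 held those of Csa7G058560 at 4.34 FPKM, from 132 reads, and Csa3G179180 at 1.01. Day 9 held those of Csa3G829260 at 1.47 FPKM and Csa6G083540 at 1.11.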

How the results depend on the processing

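Peel and flesh libraries were paired by day only, since each tissue and day has 1 library and no replicate numbers link them further. The model itself compares the tissues within days. For peel against flesh, the number of peroxidase genes called, 0 in limma, was 1 with a pseudocount of 0.1, 2 with day as a number, 1 with edgeR, 2 with edgeR and DESeq2 size factors, and 16 with DESeq2. Over all genes the number called, 45, was 167 with a pseudocount of 0.1, 0 with a pseudocount of 5, 0 with no filter, 209 with quantile normalization, 0 with no trend, 120 with no day term, 475 with day as a number, 251 with edgeR, 275 with edgeR and DESeq2 size factors, and 2992 with DESeq2. With a single library left out, 1 residual degree of freedom remains, and the other library of that day no longer informs the tissue difference. Numbers called in those fits are therefore not set beside the 45. For day 9 against day 3, limma called 0 peroxidase genes. The number was 1 with a pseudocount of 0.1 (4 over all genes) and 1 for the genes averaging 5 FPKM or more (8 over all such genes). It was 1 with edgeR with either size factors (25) and 9 with DESeq2 (2830). Day as a number replaces this contrast with a slope per day shared by both tissues, for which limma called 2 (320). For the slope difference DESeq2 called 5 (364 of all genes). The day 9 minus day 3 estimate ranged over left-out libraries from -0.62 to 7.38 for Csa4G285730 and from -0.87 to 1.30 for Csa6G213910, with the lowest of each without the day 9 peel library. The peel minus flesh estimate of Csa1G062960 ranged from -0.89 to 0.014, the highest without either day 9 library. Of 524 values of named genes under the alternatives, 4 turned, all on leaving out a day 9 library and 32 were newly past the threshold. None of these values had passed it in the limma fit reported, so none could drop below it.

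Counts past 4-fold were also taken with other pseudocounts, chosen after seeing the data. The share of all genes at the same pseudocount is in brackets. With 0.1, 5 peroxidase genes were higher in peel at day 3 (4.38%), and 5 were higher (4.95%) and 9 lower (5.35%) at day 9 than day 3 in flesh. With 5, 0 were lower in peel at day 3 (0.197%), 2 higher (2.49%) and 1 lower (0.672%) at day 6, 2 lower at day 9 (1.62%), and 1 lower at day 9 than day 3 in peel (1.62%). The cause was not tested. The lowest read total of a tested peroxidase gene was 122 over the 6 libraries.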

Other observations

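The 42 genes with extensin, hydroxyproline-rich or proline-rich cell wall names were summed. They had 1026, 3539 and 17125 FPKM in peel at days 3, 6 and 9, against 1178, 937 and 1178 FPKM in flesh. Csa1G165730, a Pollen Ole e 1 allergen and extensin family protein, had 19.8, 905 and 8616 FPKM in peel, against 0.756, 1.35 and 7.41 FPKM in flesh. Csa5G623650, a Repetitive proline-rich cell wall protein, had 19.8, 1775 and 7392 FPKM in peel, against 1.52, 2.19 and 7.20 FPKM in flesh. Both names were picked with the values in view. The other 40 genes of the list summed to 987, 860 and 1116 FPKM in peel, against 1175, 934 and 1164 FPKM in flesh. At day 9 the median peel minus flesh difference of the 34 tested genes was 0.07, with 3 lying 4-fold or more above flesh in peel and 4 as far below (7.03% and 3.94% of all genes). The extensin-list gene that edgeR called, Csa6G425710, ran the other way in time, with 34.8, 7.0 and 0.904 FPKM in peel, against 0.345 FPKM in flesh at day 3 and 0 at days 6 and 9. CASP-like protein 5 (Csa3G151500), a Casparian strip type name, had 2.71, 36.8 and 283 FPKM in peel, against 0.120, 0.0647 and 0.781 FPKM in flesh (edgeR adjusted p = 0.0408). Csa6G425710 and Csa3G151500 averaged under 1 FPKM in flesh and entered the tests through peel.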
